A study of Mus musculus with 8 samples.

Results

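Annexins are calcium-dependent proteins that bind acidic phospholipids, and several of them work in pairs with small calcium-binding S100 proteins. The genes described here are Anxa1, Anxa2, Anxa3, Anxa4, Anxa5, Anxa6, Anxa7, Anxa11, S100a10 and S100a11, and their transcripts were followed in livers with and without the microRNA miR-223. Members were all probes, other than controls, that carry 1 of these 10 symbols in the authors' deposited table. By this rule 9 of the 10 genes had a probe, among 21180 symbols in all, and they had 16 of its 40554 probes; Anxa5 had none. The genes were listed with the difference between the genotypes in view, so that difference is given here as a description and its p-values show only where a probe stood among all probes.

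Liver RNA was taken from miR-223 knockouts (miR-223KO, 4 samples) and wild-type mice (WT, 4 samples), all of them C57BL/6J males given a high-fat diet for 3 months. Diet, sex, strain and organ were thus shared by both groups. The labels give neither the age of the mice nor how the knockout was made, and they leave unsaid whether the samples came from different mice, so the spread behind every p-value may be technical. On 8 Agilent 2-colour arrays, 1 per sample, Cy5 marked the liver RNA and Cy3 a mixed RNA of mouse tissues common to all arrays, and the dyes were not swapped.

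Annexin A2 forms a heterotetramer with S100A10, also called p11, which sits at the cell surface and the submembrane cytoskeleton and binds plasminogen and its activator. Annexin A1 is a glucocorticoid-induced mediator that signals through formyl peptide receptors and pairs with S100A11. Annexins A1, A2, A4, A5, A6 and A7 also gather at torn plasma membranes, where they take part in resealing. In liver, annexin A2 is known to be low in healthy hepatocytes and more abundant in non-parenchymal cells.

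The 2 Anxa2 probes carried the largest differences and are shown first. They match the same RefSeq mRNA at different places, sharing no run of 12 or more bases.
Anxa2 A_51_P165342: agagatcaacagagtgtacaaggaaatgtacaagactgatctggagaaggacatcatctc
Anxa2 A_52_P62037: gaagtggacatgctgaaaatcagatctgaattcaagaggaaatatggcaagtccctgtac
The S100a10 and S100a11 probes are shown for the partner genes, the second because 46 of its bases, in capitals, also stand in a probe of the array that has no gene name.
S100a10 A_51_P342871: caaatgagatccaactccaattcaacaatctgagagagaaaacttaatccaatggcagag
S100a11 A_51_P155643: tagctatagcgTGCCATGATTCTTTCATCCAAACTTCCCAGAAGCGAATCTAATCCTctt
The 3 Anxa7 probes are shown because their values did not run the same way.
Anxa7 A_51_P402458: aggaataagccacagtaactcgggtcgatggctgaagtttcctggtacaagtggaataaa
Anxa7 A_52_P397385: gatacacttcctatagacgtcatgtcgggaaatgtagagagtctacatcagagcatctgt
Anxa7 A_52_P534355: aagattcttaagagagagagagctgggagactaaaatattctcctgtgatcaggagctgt
The microRNA that the knockouts lack is shown with its seed, bases 2 to 8, in capitals, as RefSeq gives it at chrX:96242884-96242905 on the plus strand of GRCm38.p6.
miR-223-3p: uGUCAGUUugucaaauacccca
Every member probe was 60 bases long, with a GC content of 35.0% to 45% against a median of 40.0% over all probes of the table. Apart from the S100a11 probe, no member probe shared a run longer than 15 bases with a probe of another gene or with an unnamed probe. The seed's target letters, AACTGAC, were searched on the sense strand of the probes and stood in 0 of the 16, against 150 of 40554 probes (0.37%). The search covered probe bases only, so it says nothing of the rest of these mRNAs.

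The test took in 23930 probes, those whose Cy5 signal stood well above background on 4 or more arrays and that kept 3 or more values without an outlier flag in each group. Of the 16 member probes 11 were tested, standing for 8 genes; 3 of the other 5 were too dim and 2, the only S100a10 probe and a bright Anxa4 probe, had lost values to flags. Values are log2 ratios of liver over mixed RNA, and a difference is miR-223KO minus WT, between the group means on that scale. The 8 arrays lay on 2 slides with 2 samples of each genotype on each, so every difference was also formed within each slide. Between 49.5% and 69.8% of the spots of an array were well above background in Cy5, no spot was saturated, and no probe for miR-223 itself was used here, so the knockout was not checked.

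Anxa2 had the largest differences among the members. Probe A_51_P165342 gave log2 ratios of 0.44, 0.68, -0.06 and -0.19 in miR-223KO replicates 1 to 4, against -1.18, -0.73, -0.65 and -0.42 in WT replicates 1 to 4. All 4 miR-223KO values lay above all 4 WT values, with WT replicate 1 lowest and miR-223KO replicate 2 highest. The means were 0.22 ± 0.41 in miR-223KO and -0.75 ± 0.32 in WT (SD, n = 4 each), a difference of 0.96 with a standard error (SE) of 0.23, or 1.95-fold. Probe A_52_P62037 gave 0.38, -0.18, 0.12 and -0.01 in miR-223KO, against -1.37, -0.57, -0.56 and -0.56 in WT. These groups did not overlap either, and the WT spread came from replicate 1, since the other WT values differed by under 0.02. Its means were 0.07 ± 0.24 in miR-223KO and -0.77 ± 0.40 in WT (SD, n = 4 each), a difference of 0.84 (SE 0.22), or 1.79-fold. Without WT replicate 1 that difference was 0.64.

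**Figure D1:**
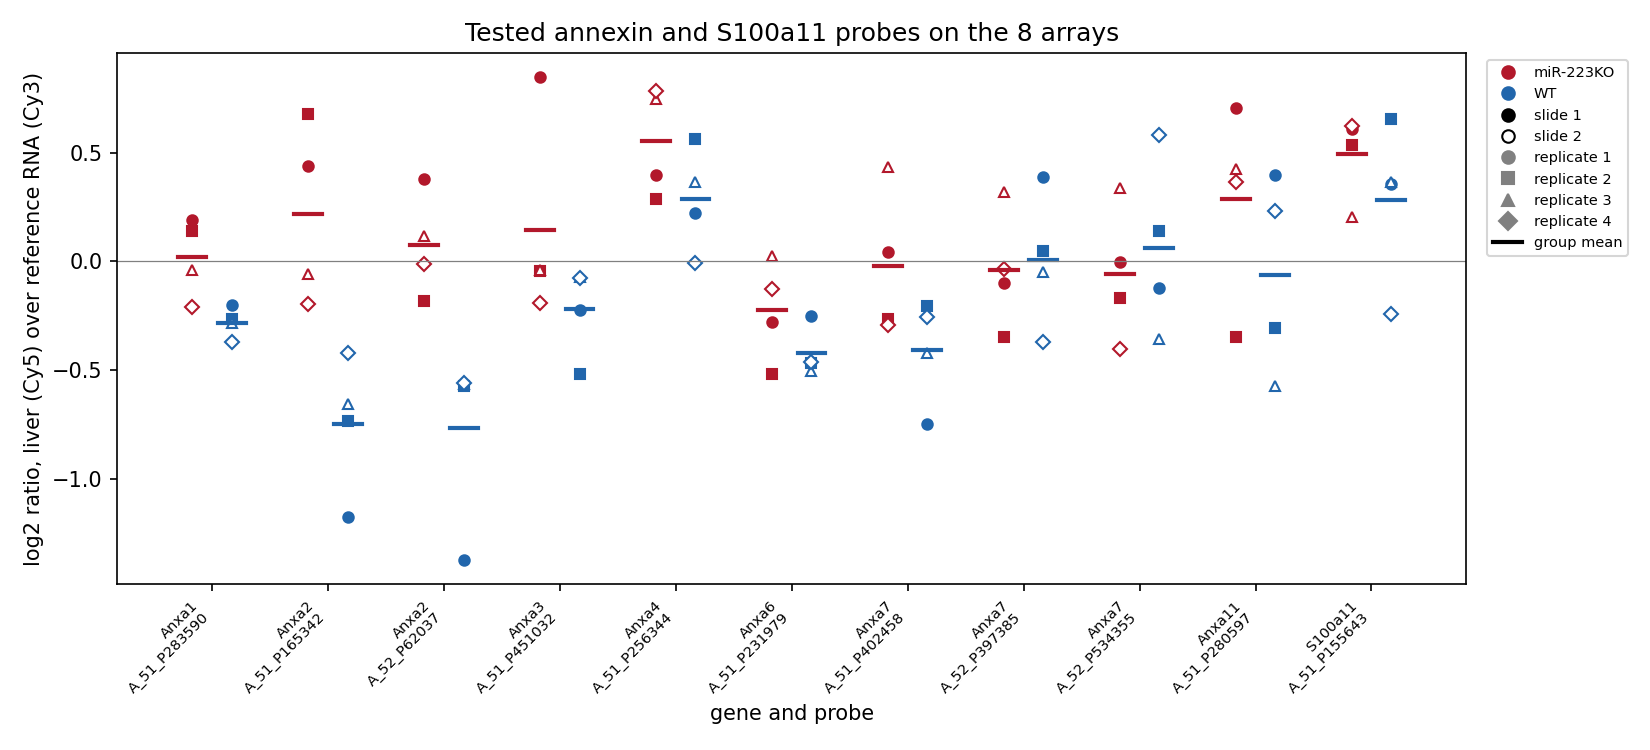
Log2 ratio of liver over mixed reference RNA (y axis) of each tested probe (x axis) on each array, miR-223KO in red to the left of WT in blue, with filled symbols for slide 1, open symbols for slide 2 and bars for group means. The groups stand apart at both Anxa2 probes, and at every other probe they overlap.

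Neither Anxa2 difference passed the test over all probes. In limma, with Benjamini-Hochberg adjustment over 23930 probes, A_51_P165342 had an adjusted p of 0.683 and A_52_P62037 one of 0.985, and they were 20th and 30th of the probes by unadjusted p. Over all probes, 0.00836% passed at an adjusted p under 0.05. The 95% intervals of the differences ran from 0.49 to 1.44 and from 0.39 to 1.30. The raw Cy5 intensities of A_51_P165342, before any normalisation, were 569, 436, 353 and 413 in miR-223KO and 362, 267, 178 and 148 in WT over local backgrounds of 49 to 63. On this raw scale miR-223KO replicate 3 fell just under WT replicate 1. The raw scale also carries the brightness of each array. The median Cy5 intensity over the array was 127, 93, 118 and 135 in miR-223KO replicates 1 to 4. In WT replicates 1 to 4 it was 187, 137, 87 and 79.5, so the WT arrays of slide 2 were the dimmest. After loess and a scaling of mean signals between arrays, the liver channel of A_51_P165342 was higher by 0.76 in miR-223KO and the mixed-RNA channel was lower, with a difference of -0.20. At A_52_P62037 the liver channel differed by 0.96 and the mixed-RNA channel by 0.12. Over both slides together, most of the difference at both probes thus stood in Cy5. On slide 2 at A_51_P165342 the log2 liver signals were 9.054 and 8.999 in miR-223KO, against 8.864 and 8.774 in WT. The mixed-RNA signals there were 9.109 and 9.194 against 9.518 and 9.198, so they carried part of that slide's difference. At A_52_P62037 the slide 2 liver signals were 9.782 and 9.937 against 9.361 and 9.262, and the mixed-RNA signals overlapped.

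**Figure D2:**
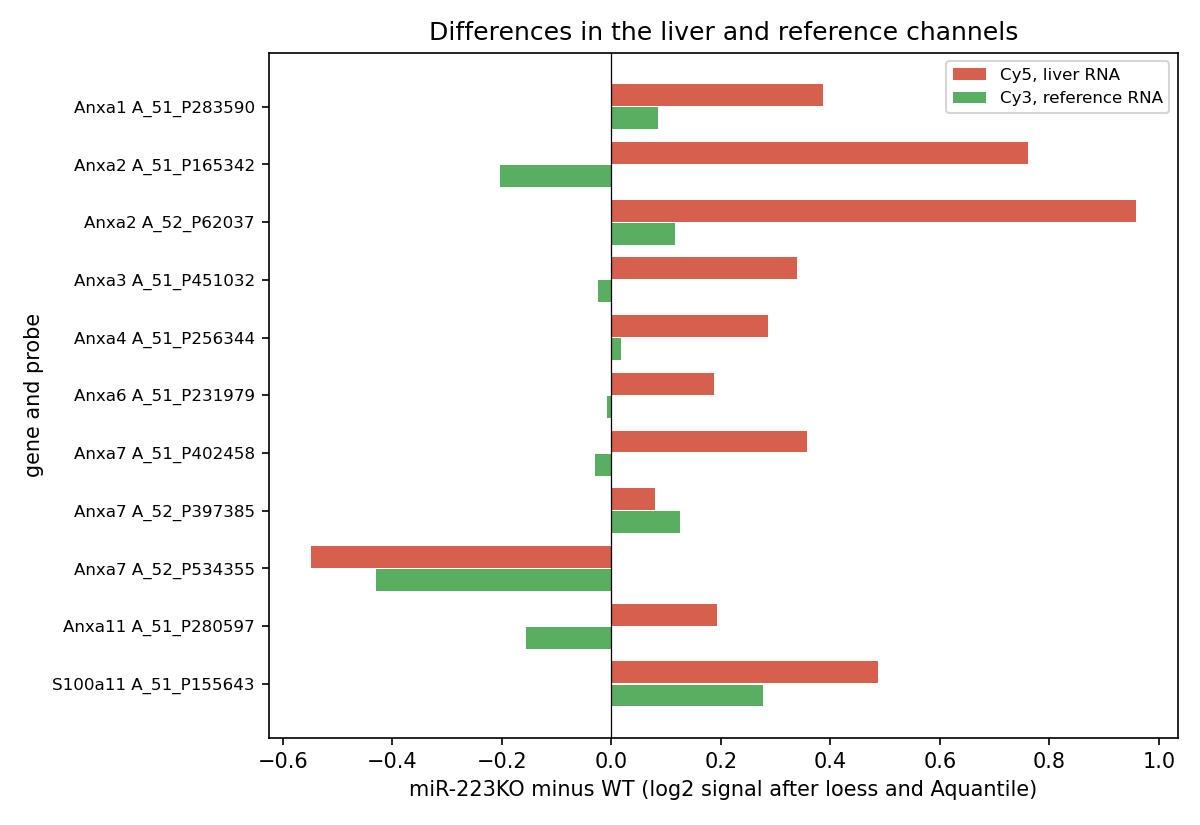
Difference of miR-223KO minus WT in log2 signal (x axis) for each tested probe (y axis), in the liver channel (Cy5, upper bar) and the mixed reference RNA (Cy3, lower bar). The Cy5 bars of Anxa2 reach 0.76 and 0.96, and at Anxa7 probe A_52_P534355 both bars lie below 0.

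The size of the Anxa2 difference was unequal between slides. At A_51_P165342 it was 1.51 on slide 1 and 0.41 on slide 2, and at A_52_P62037 it was 1.07 on slide 1 and 0.61 on slide 2. The genotype by slide term for A_51_P165342 was -1.10 (SE 0.35), with an unadjusted p of 0.00715 and an adjusted p of 0.50 in limma over 21503 probes. That term passed an unadjusted p under 0.05 at 2 of the 11 member probes, against 9.38% of all probes, and at none after adjustment. For A_52_P62037 it was -0.46 (SE 0.41). Both Anxa2 probes were thus higher in miR-223KO on either slide, and the slide term did not pass the adjusted threshold.

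S100a10, which encodes the partner of annexin A2, gave no clear difference in either direction. Its probe gave -0.30 and -0.41 in miR-223KO replicates 1 and 2, against -0.16, -0.29 and -0.37 in WT replicates 1 to 3, the other 3 spots being flagged. The WT values bracketed 1 of the 2 miR-223KO values, and too few values were left for the test. On these unflagged spots the liver channel differed by 0.14 and the mixed-RNA channel by 0.22, both higher in miR-223KO. Both miR-223KO spots lay on slide 1 and WT replicate 3 on slide 2, so these differences mix slide with genotype. On slide 1 the log2 liver signals were 11.58 and 11.43 in miR-223KO, against 11.47 and 11.48 in WT. The mixed-RNA signals there were 11.88 and 11.84 against 11.62 and 11.76. WT replicate 3 was lower in both channels, at 11.15 and 11.52. With flagged spots kept, the means were -0.33 ± 0.11 in miR-223KO and -0.18 ± 0.21 in WT (SD, n = 4 each), a difference of -0.15 (SE 0.18, limma adjusted p = 0.985). The authors' deposited table gives -0.07 for S100a10, beside 1.07 and 1.04 for the Anxa2 probes.

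Anxa1 and S100a11, whose products pair with each other, had smaller differences. Anxa1 gave 0.19, 0.14, -0.04 and -0.21 in miR-223KO, against -0.20, -0.27, -0.29 and -0.37 in WT. The miR-223KO samples of slide 1 were the highest, and miR-223KO replicate 4 fell just below WT replicate 1, the only overlap. The difference was 0.30 (SE 0.17, limma adjusted p = 0.985), from means of 0.02 ± 0.18 in miR-223KO and -0.28 ± 0.07 in WT (SD, n = 4 each). The authors' deposited table gives 0.59 for Anxa1. S100a11 gave 0.61, 0.54, 0.20 and 0.62 in miR-223KO, against 0.36, 0.66, 0.36 and -0.24 in WT. Only WT replicate 4 stood clear of the rest, and the difference of 0.21 (SE 0.21) became 0.04 without it and 0.33 without WT replicate 2. The authors' deposited table gives 0.47 for S100a11. The unnamed probe that shares the 46 bases, singled out after its values were seen, gave 0.40, 0.49, 0.18 and 0.43 in miR-223KO and -0.60, 0.07, 0.42 and 0.06 in WT. Its low WT sample was replicate 1, not replicate 4, and its difference was 0.39 (SE 0.21, limma adjusted p = 0.985), with the groups overlapping.

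The annexins of membrane traffic and repair gave smaller or mixed values. Anxa7, an annexin of exocytic granules, gave 0.04, -0.27, 0.43 and -0.29 in miR-223KO at probe A_51_P402458, against -0.75, -0.21, -0.42 and -0.25 in WT. WT replicate 1 was lowest and the groups overlapped, with a difference of 0.39 (SE 0.21) that was 0.24 without miR-223KO replicate 3. The 2 other Anxa7 probes, which the array assigns to cDNA clones and not to the RefSeq mRNA, differed by -0.05 (SE 0.21) and -0.12 (SE 0.22). Probe A_52_P534355 gave -0.005, -0.17, 0.34 and -0.40 in miR-223KO, against -0.12, 0.14, -0.36 and 0.58 in WT, with overlapping groups. Its raw Cy3 intensity of the common RNA was 445 and 467 on miR-223KO replicates 1 and 2, and at least 1071 on every other array. Those arrays were also the dimmest in Cy3, with medians of 147 and 121.5 against at least 201.5 on every other array. After loess and scaling between arrays, the probe's log2 mixed-RNA signal was still lowest there. It was 8.628 and 8.897, against at least 9.425 on every other array. Anxa7 probe A_52_P397385 was well above background on 3 miR-223KO and 2 WT arrays.

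Anxa4, an annexin of secretory epithelia, gave 0.40, 0.29, 0.75 and 0.79 in miR-223KO at probe A_51_P256344, against 0.22, 0.56, 0.37 and -0.01 in WT. The 2 miR-223KO samples of slide 2 were above every WT sample and those of slide 1 were not, with differences of -0.05 on slide 1 and 0.59 on slide 2 and 0.27 (SE 0.19) over both, or 0.17 without WT replicate 4. The brighter Anxa4 probe A_51_P256342 was not tested, having lost 2 miR-223KO values and 1 WT value to flags. Its unflagged values were 0.56 and -0.17 in miR-223KO replicates 2 and 4, against -0.07, 0.28 and -0.38 in WT replicates 2 to 4. Their means were 0.20 in miR-223KO and -0.06 in WT, and the groups overlapped. With flagged spots kept it averaged 0.33 ± 0.32 in miR-223KO and -0.16 ± 0.31 in WT (SD, n = 4 each), a difference of 0.49 (SE 0.21, limma adjusted p = 0.985). These groups overlapped too. The remaining Anxa4 probe, A_52_P456440, was above background on 1 array.

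Anxa6, a large annexin of endocytic membranes, gave -0.28, -0.52, 0.02 and -0.13 in miR-223KO at probe A_51_P231979, against -0.25, -0.47, -0.50 and -0.46 in WT. As at Anxa4, the high samples were the miR-223KO replicates of slide 2, and the difference was -0.04 on slide 1, 0.43 on slide 2 and 0.20 (SE 0.18) over both, or 0.11 without miR-223KO replicate 3 and 0.29 without miR-223KO replicate 2. Its other probe, A_52_P434670, was above background on 2 miR-223KO arrays and 1 WT array and was not tested.

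Anxa11, which tethers RNA granules to lysosomes, gave 0.71, -0.35, 0.42 and 0.37 in miR-223KO, against 0.40, -0.31, -0.57 and 0.23 in WT. Both groups held high and low samples, and the SDs of 0.45 in miR-223KO and 0.46 in WT were above the difference of 0.35 (SE 0.25). That difference was 0.13 on slide 1 and 0.57 on slide 2, 0.18 without WT replicate 3 and 0.56 without miR-223KO replicate 2. Anxa3, an annexin of neutrophil granules, gave 0.85, -0.04, -0.04 and -0.19 in miR-223KO at probe A_51_P451032, against -0.22, -0.52, -0.07 and -0.08 in WT. The first miR-223KO sample stood alone, and the difference of 0.36 (SE 0.23) was 0.13 without it. On the other Anxa3 probe, A_51_P430240, Cy5 was above background on 1 array, where the spot was flagged; the authors' deposited table gives it -0.95, the lowest value of the members.

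Anxa5, known for binding phosphatidylserine on dying cells, had no row under the rule. The scanner files hold a spot that carries its RefSeq mRNA, chosen here after the symbol was found absent, and that spot was flagged on 3 miR-223KO and 3 WT arrays. With flagged spots kept it averaged -0.07 ± 0.29 in miR-223KO and -0.51 ± 0.48 in WT (SD, n = 4 each), a difference of 0.44 (SE 0.24, limma adjusted p = 0.985), and the groups overlapped. The only unflagged values ran the other way, at -0.33 in miR-223KO replicate 2 and 0.15 in WT replicate 2. No direction is thus read for Anxa5.

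**Figure D3:**
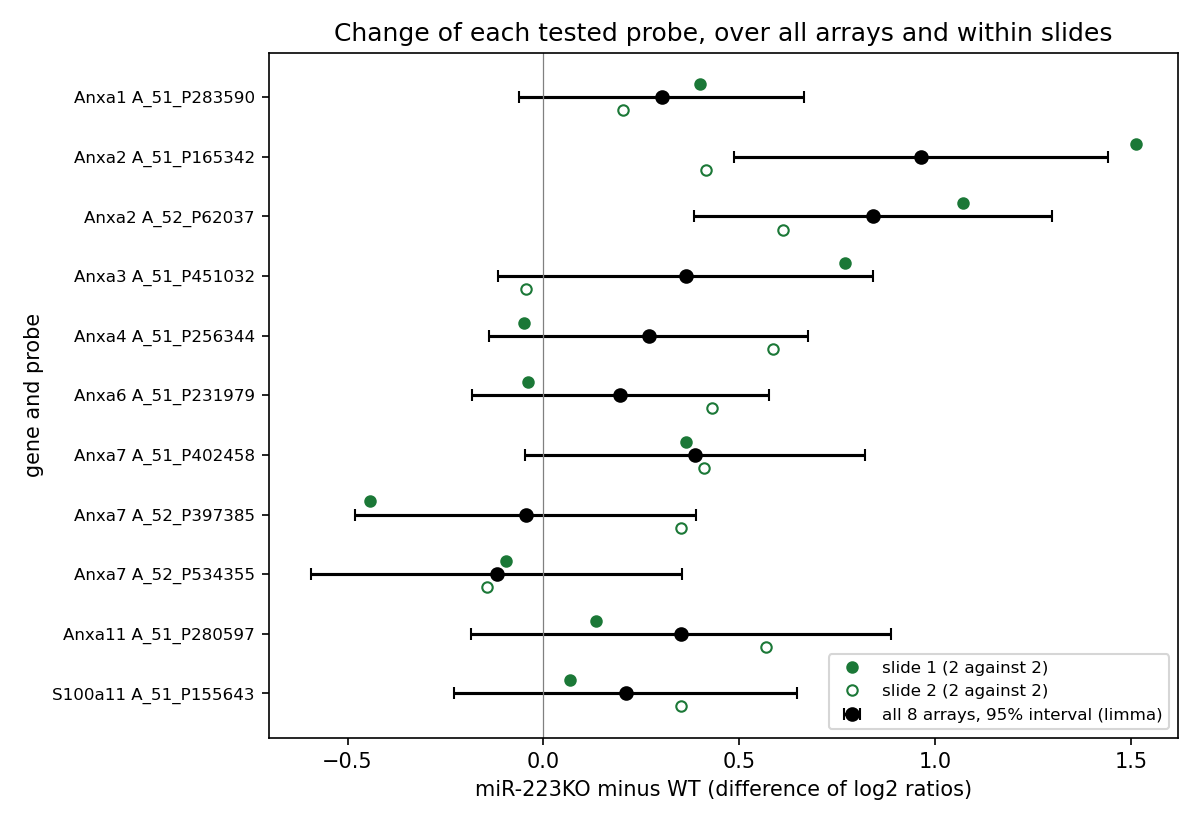
Difference of miR-223KO minus WT (x axis, log2) of each tested probe (y axis), with the 95% limma interval over 8 arrays in black and the difference within each slide in green. Only the 2 Anxa2 intervals lie above 0, and the slides part furthest at Anxa2 probe A_51_P165342.

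Of the 11 tested probes 9 were higher in miR-223KO and 2 were lower, against 49.4% higher over all 23930 probes, and their median difference was 0.30 against -0.003 over all probes. None passed the adjusted threshold in limma, where the adjusted p ran from 0.683 to 1.00, and 2, both of Anxa2, had an unadjusted p under 0.05, as did 4.54% of all probes. Groups were fully separated upward at 2 probes, again those of Anxa2, and at 1.69% of all probes. A difference of 0.5 or more was reached by these 2, and by 1.62% of all probes. The genes were chosen on this same contrast, so nothing is read from these counts. The 2 on the lower side were both of Anxa7 and assigned to cDNA clones, each with a difference smaller than its SE. The 9 on the higher side were assigned to a RefSeq mRNA. How RefSeq and clone probes ran over the whole array was not counted, so nothing is read from this split either. Within slides, 7 of 11 probes were higher with a median of 0.13 on slide 1, and 9 of 11 with a median of 0.41 on slide 2. Over all probes the median was -0.001 on slide 1 and -0.005 on slide 2. Each slide sets 2 arrays against 2.

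**Figure D4:**
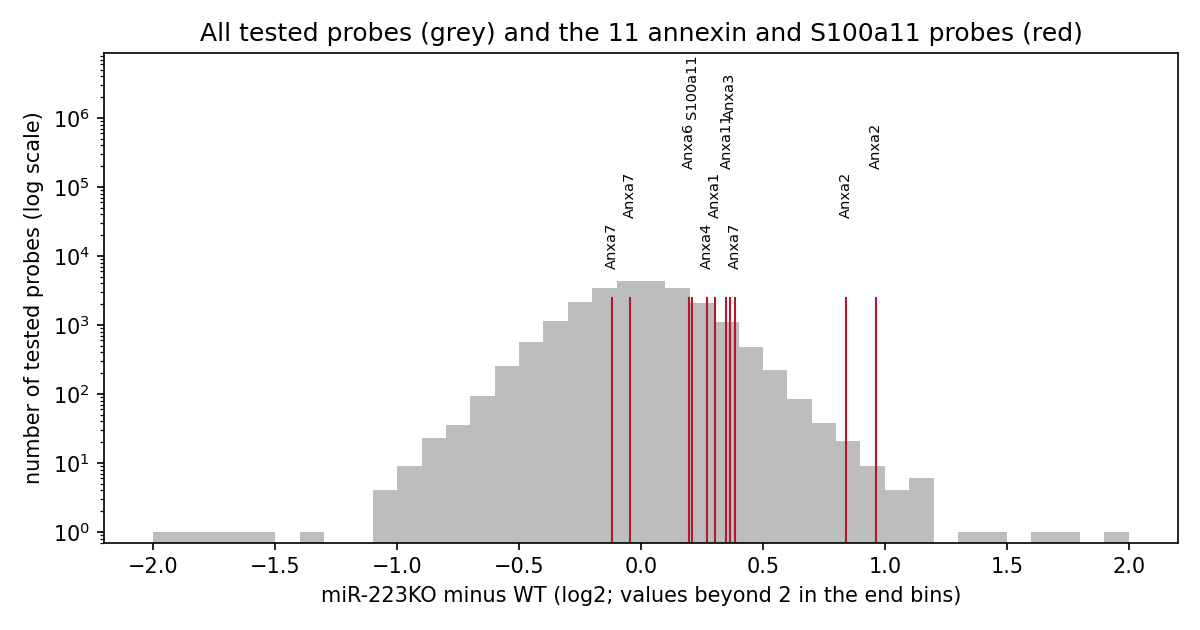
Number of tested probes (y axis, log scale) by their difference of miR-223KO minus WT (x axis, log2) in grey, with red lines for the 11 member probes. The 2 Anxa2 lines stand in the right tail at 0.84 and 0.96, and the other 9 lie between -0.12 and 0.39.

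The other annexins and the genes around the annexin pathway, taken from lists chosen with earlier results of these data known and each gene read at its brightest probe, had list medians between -0.07 and 0.06. No gene of these lists passed the adjusted threshold. Of the other annexins Anxa13 differed by 0.20, Anxa8 by -0.07 and Anxa10 by -0.08, with a median of -0.07, and Anxa9 was above background on 0 arrays. Of 14 other S100 genes 10 were tested, 5 of them higher and 5 lower, with a median of 0.01. S100a9, a subunit of calprotectin of neutrophils and monocytes, averaged 0.21 ± 0.41 in miR-223KO and -0.40 ± 0.10 in WT (SD, n = 4 each), a difference of 0.61 (SE 0.21, limma adjusted p = 0.985), with no overlap of the groups. S100b, a glial S100 protein, differed by -0.38 and S100a5 by 0.19.

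Plasminogen is bound at the cell surface by annexin A2 with S100A10. Of 7 plasminogen genes 4 were tested, with 3 higher and a median difference of 0.06. The plasminogen receptor gene Plgrkt differed by 0.25 (SE 0.18) and the activator gene Plat by -0.26 (SE 0.27). The formyl peptide receptor genes, through which annexin A1 signals, differed by 0.06 at Fpr1 and 0.05 at Fpr2, both with an SE near 0.19. Of 13 genes of membrane repair and annexin partners 12 were tested, 7 higher and 5 lower, with a median of 0.02. Capn2, a calpain that cleaves cytoskeletal proteins, averaged 0.77 ± 0.30 in miR-223KO and 1.30 ± 0.52 in WT (SD, n = 4 each), a difference of -0.53 (SE 0.24, limma adjusted p = 0.985). That difference was 0.008 on slide 1 and -1.07 on slide 2. Hltf, a helicase-like chromatin factor, differed by -0.37, with -0.06 on slide 1 and -0.69 on slide 2, and the ferlin gene Myof by -0.28, with -0.03 on slide 1 and -0.53 on slide 2.

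In whole liver, fewer cells of a type and less RNA per cell cannot be told apart, so markers of the cells that carry annexins are given beside these values. Of 8 macrophage and Kupffer cell markers 7 were tested and 6 were higher in miR-223KO, with a median difference of 0.21, of 0.44 on slide 1 and -0.06 on slide 2. Csf1r, the receptor of macrophage colony-stimulating factor, differed by 0.54 (SE 0.20, limma adjusted p = 0.985) with no overlap of the groups, and the mean of the list ran from -0.18 to 0.47 in miR-223KO and from -0.34 to 0.63 in WT. Of 6 markers of monocytes and lipid-associated macrophages 4 were tested and 3 were higher, with a median of 0.34, of -0.14 on slide 1 and 0.45 on slide 2. Trem2, a lipid receptor of such macrophages, differed by 0.57 (SE 0.21, limma adjusted p = 0.985), by 1.00 on slide 1 and 0.15 on slide 2. The list mean ran from -0.04 to 0.45 in miR-223KO and from -0.43 to 0.12 in WT, while Gpnmb was above background on 0 arrays and Ccr2 on 2. Of 10 hepatocyte markers the 3 tested, Alb, Apoa1 and Ttr, were lower in miR-223KO. Their median was -0.55, of -0.15 on slide 1 and -0.89 on slide 2. The list mean was 0.69 to 1.09 in miR-223KO and 1.13 to 1.89 in WT. Of the 7 others, 5 were above background on all 8 arrays but had lost too many values to flags, and Pck1 and Serpina1a were not found on the array. The hepatocyte values thus rest on 3 genes. Neutrophil markers had 8 of 11 tested, 3 higher and a median of -0.05, and the endothelial, stellate cell and cholangiocyte lists had medians of 0.09, -0.002 and -0.07. Of these 4 lists, those of neutrophils, stellate cells and cholangiocytes had a median above 0 on slide 1 and below 0 on slide 2. No marker passed the adjusted threshold, and the part of these cells in the Anxa2 values was not tested.

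Genes whose pattern over the 8 arrays was close to that of Anxa2 at probe A_52_P62037, its brighter probe, are given as a description, since the 8 points share their arrays, slides and group difference. Among 12932 genes with all 8 values, high Pearson correlations were found with Dlg5 (0.97), a scaffold protein, Mapkapk2 (0.97), a kinase downstream of p38, Plin4 (0.96), a lipid droplet coat protein, and Ear10 (0.95), an eosinophil-associated ribonuclease. After the group means were taken out the correlations were 0.93, 0.89, 0.90 and 0.86 in the same order, and without WT replicate 1, the lowest Anxa2 sample, they were 0.94 to 0.97. These values come from the arrays on which the genes were picked, so they are no separate check. The Anxa2 probes themselves did not run alike within miR-223KO. Replicate 2 was the highest miR-223KO sample at A_51_P165342 (0.68) and the lowest at A_52_P62037 (-0.18). Whether these genes also follow A_51_P165342 was not tested. Plin4 differed by 0.96 between miR-223KO and WT, the size seen at Anxa2 probe A_51_P165342, with a limma adjusted p of 0.350. Dlg5, Mapkapk2 and Ear10 differed by 0.24, 0.42 and 0.51.

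The Anxa2 values moved most with which slide was read. Settings that changed only the variance trend, the blocks or the signal filter could not move a difference. They left A_51_P165342 at 0.96 and A_52_P62037 at 0.84. The scanner's processed ratio and the authors' deposited table gave the same values as each other, 1.07 and 1.04. Over the processing settings and samples left out, A_51_P165342 was higher in miR-223KO by 0.41 to 1.51 and A_52_P62037 by 0.61 to 1.07, and the limma adjusted p stayed between 0.343 and 1.00. Both ends of each range came from a single slide. Over the settings that used both slides, A_51_P165342 was higher by 0.81 to 1.10 and A_52_P62037 by 0.64 to 1.04.

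**Figure D5:**
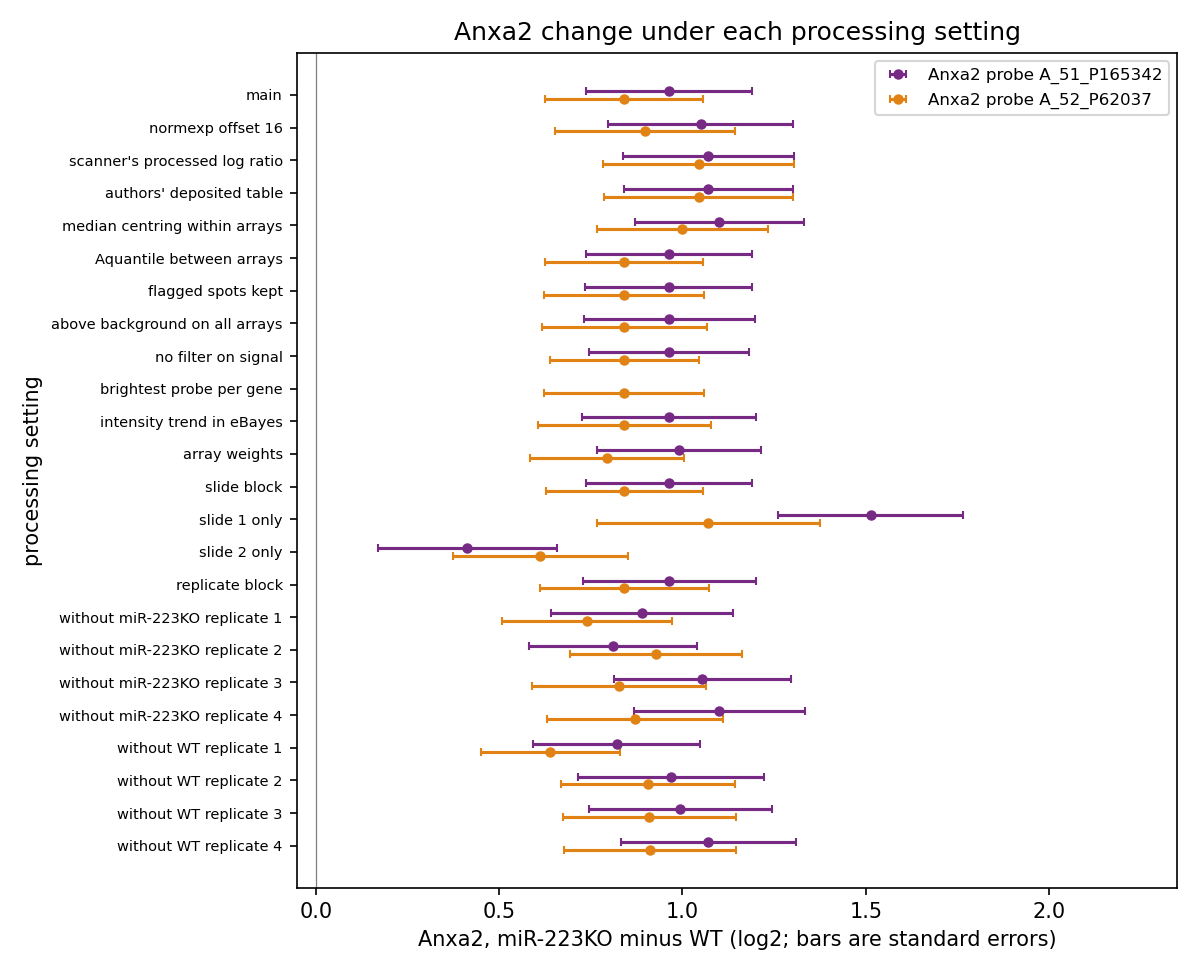
Difference of miR-223KO minus WT (x axis, log2, with standard errors) at the 2 Anxa2 probes under each processing setting (y axis). Every value lies above 0, from 0.41 on slide 2 alone to 1.51 on slide 1 alone.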

How the data were processed

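The members and gene lists were chosen with earlier results of these data known. RNA of 4 miR-223KO and 4 WT livers was compared on 8 arrays, read with Agilent Feature Extraction 12.0.3.1 on a grid named for mm9, per the file headers. Per the file headers, the deposited scanner output gives each spot's median intensity with its local background, and a LogRatio, the log10 ratio of the processed signals (Cy5 over Cy3). In 40646 rows the authors' table holds log2 ratios, each column tracking its own array's scanner ratio (r 0.876 to 0.990) with medians of -0.08 to 0.13, and its log2 fold change is miR-223KO minus WT, matching the group means within 5.2e-07.

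From the scanner files, background was corrected by normexp (offset 50), with flagged local backgrounds replaced by the median of the others on that array and channel, and log2 ratios were normalised by loess within arrays, in limma 3.58.1 under R 4.3.3, with control and flagged spots at weight 0. Flagged spots (2% to 5.67%) were left out and spots of a probe averaged. Each probe was its own item, apart from the lists, where the brightest probe stood for a gene. The comparison used lmFit and eBayes, two-sided, over 23930 probes, with Benjamini-Hochberg adjustment and a threshold of 0.05, and a genotype by slide term over 21503 probes with all 8 values. Channel differences come from Aquantile scaling after loess, which sets how a change parts between channels. Fitting was tested on simulated data. The number of arrays limits the precision, with a median SE of 0.20 over all probes. Named were all member probes, for each list members past the test or else up to 3 with the smallest unadjusted p, and the 5 genes most like Anxa2; some of the genes these rules take are not reported here. Sequences are Agilent's, from the deposited files, and RefSeq's for miR-223. Same-numbered miR-223KO and WT samples did not deviate together (r -0.02 to 0.05), so the numbers were not taken as pairs. Alternatives were other background corrections, normalisations, filters, probe choices, variance models, blocks, single slides and each sample left out.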

Additional observations from a re-analysis of the deposited data

Results flagged for a closer look

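Among 27 sets of 4 values of the member probes, 3 held a sample whose gap to the next exceeded Dixon's 95% critical value, where chance gives about 1 in 20. WT replicate 1 gave -1.37 at Anxa2 probe A_52_P62037, against -0.57 for the next WT sample, and it was also the lowest WT sample at the other Anxa2 probe. At Anxa3 probe A_51_P451032, miR-223KO replicate 1 gave 0.85, with the next miR-223KO sample at -0.04. WT replicate 1 gave -0.25 at Anxa6 probe A_51_P231979, where the next WT sample gave -0.46, and there it was the highest.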

How the results depend on the processing

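Over all probes 1 was called higher in miR-223KO and 1 lower, neither of them a member. With a normexp offset of 16 these counts were 3 and 3, and with an intensity trend in the variance 2 and 3. No probe was called lower with the scanner's processed log ratio, the authors' deposited table, median centring or flagged spots kept, 3 were with probes above background on all arrays, and 2 with slide as a block. With the replicate number as a block, which the data did not show to pair samples (no sample matched its own number best), 1 was called higher and 2 lower. Slide 1 alone and slide 2 alone each gave 0 higher and 0 lower. Leaving out 1 sample gave 1 to 2 higher and 1 to 2 lower, with 2 higher only without miR-223KO replicate 1, and 2 lower without that sample, WT replicate 3 or WT replicate 4. The causes were not tested. No member was called under any of the 23 alternatives, and 0 probes passed the genotype by slide test where it was run. The median difference of the member probes was 0.13 to 0.41. Of 248 values of single member probes, 240 kept their sign and 236 moved by less than the spread between replicates. The other 12 were Anxa1 at 0.59 with the scanner's processed ratio and with the authors' deposited table, and, within slides, Anxa2 probe A_51_P165342, Anxa3, Anxa4, Anxa6 and Anxa7 probe A_52_P397385. Sign changes fell on Anxa3, Anxa4, Anxa6 and the 2 lower Anxa7 probes. Aquantile scaling leaves the log2 ratios unchanged by construction. The intensity trend, the slide and replicate blocks, the signal filters and the choice of the brightest probe could not move these differences either. The 248 values include all of these settings, so the counts of kept signs and small moves overstate stability. The scanner's processed ratio and the authors' deposited table also gave the same member differences as each other. Dim probes (1 each of Anxa3, Anxa4 and Anxa6) and flagged spots (S100a10, Anxa5, 1 Anxa4 probe) limited what could be compared.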
